A study of Sus scrofa with 6 samples.

Results

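The proteasome is the protease complex that breaks down most short-lived and damaged proteins of a cell after they have been tagged with ubiquitin. Its core particle is a barrel of alpha and beta rings with the catalytic sites inside the beta rings. A regulatory particle, made of a ring of ATPases (PSMC genes) and non-ATPase subunits (PSMD genes), binds ubiquitin chains, unfolds the substrate and feeds it into the core. Neurons rely on this complex to turn over synaptic and regulatory proteins, and immune signals can exchange the catalytic subunits for inducible ones.

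Proteasome genes were taken by name, as every gene of the deposited protein-coding table whose pig symbol starts with PSMA, PSMB, PSMC, PSMD, PSME, PSMF or PSMG. The rule found 44 of 21280 genes, and 40 of them passed the filter on low values (at least 1 TPM, a transcript abundance scaled for gene length and library total, in no fewer than 3 libraries). PSMA8, PSMB9, PSMB11 and PSMC3IP did not pass it and were not tested. Of 49 symbols with these prefixes in the RefSeq annotation of Sscrofa11.1, 6 were matched to no identifier of the table (PSMA6, PSMB5, PSMB6, PSMG1, PSMG2 and PSMG4) and are not analysed here. The prefix also took in PSMC3IP, a factor of meiotic recombination, and PSME3IP1, a nuclear protein that binds PSME3. Neither is a proteasome subunit.

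The series measured RNA in brain tissue of 3 wild boars and 3 domestic pigs of the Rongchang breed, all females aged 2 years by their labels. The labels give brain as the tissue of the wild boars and cerebrum as that of the domestic pigs, while the series title names the prefrontal cortex. The domestic pig libraries were labelled as re-analysed from earlier deposits, so breed, source of the libraries and labelled tissue cannot be told apart here. The labels number the samples of a breed and do not state how the tissue was sampled. The p-values therefore rest only on the spread between these samples, which on deposited TPM was pooled over genes of like level.

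Deposited TPM of all listed genes summed to 17.2% to 31.0% of 1000000 in wild boar libraries and 23.5% to 40.9% in domestic pig libraries, so the authors' scale covers more than these genes. TPM keeps no depth, and the depth behind the gene values is unknown. Median-ratio rescaling, which sets a typical gene equal between libraries, was therefore run as well: over the 11752 genes tested the median log2 fold change was -0.41 on deposited TPM and 0.01 after rescaling. Changes of genes are given on both scales, and those of circRNAs on deposited TPM only. Of 5 cerebellar and hindbrain markers, EN2 and HOXB3 were near 0, CBLN1 and ZIC1 averaged 2.14 and 2.67 TPM in wild boar, against 2.19 and 2.18 TPM in domestic pig, and 0 of the 3 tested passed on either scale. PVALB, which cortical interneurons also express, carried most of that list's sum, and the rescaled sums overlapped at 57.0 to 77.1 TPM in wild boar, against 50.5 to 90.3 TPM in domestic pig.

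Markers of several cell types moved after rescaling, and their part in the results on proteasome genes was not tested. Of 5 general neuron markers 0 passed. Of 7 markers of cortical glutamatergic neurons 2 rose, CAMK2A by 0.86 and SLC17A7 by 0.80 on the log2 scale, with a list median of 0.46, while NEUROD6 was at -0.60 (limma adjusted p = 0.0507). Of 4 endothelial markers 1 rose, CLDN5 by 1.28, with a list median of 0.42. Of 10 mural cell and fibroblast markers 2 rose, ACTA2 by 1.12 and TAGLN by 1.05, with a list median of 0.56. C1QA of 7 tested microglia markers and CD79A of 2 tested lymphocyte markers also rose, by 0.72 and 0.83. None of these 7 rising genes passed on deposited TPM, and after rescaling 8.88% of all genes tested were called higher in wild boar. In the microglia, lymphocyte and mural lists 1 tested member each was below 0 after rescaling. These were P2RY12 at -0.66, CD3D at -0.39 and RGS5 at -0.43, none passing (limma adjusted p = 0.0829, 0.0594 and 0.135). Of the markers of astrocytes, oligodendrocytes and GABAergic neurons 0 passed on either scale. Without overlap after rescaling, AQP4 (-0.62, limma adjusted p = 0.0731) and GAD2 (-0.27) lay lower in wild boar, and MOG (0.21) and SLC32A1 (0.29) higher. Over all genes tested 22.1% lay lower and 19.6% higher in this way. AQP4 also lay lower without overlap on deposited TPM (-1.13). Red blood cell markers separated the breeds, and their 5 genes summed to 522 to 760 TPM in wild boar, against 123 to 312 TPM in domestic pig, with 4 of 4 tested members rising after rescaling and 2 on deposited TPM.

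Proteasome genes were expressed above the typical gene in both breeds. Their 40 tested members had a median of 27.5 TPM over all libraries, against 7.0 TPM for all genes tested. Together the 44 genes made 0.505%, 0.429% and 0.479% of the listed TPM in wild boar 1 to 3, against 0.479%, 0.412% and 0.410% in domestic pig 1 to 3. These shares overlapped. Without the 13 mitochondrially encoded genes the share was 0.565% ± 0.0306 in wild boar, against 0.551% ± 0.0294 in domestic pig (SD, n = 3 each), a difference smaller than either SD. In bulk tissue, fewer cells of a type and less RNA per cell cannot be told apart.

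**Figure D1:**
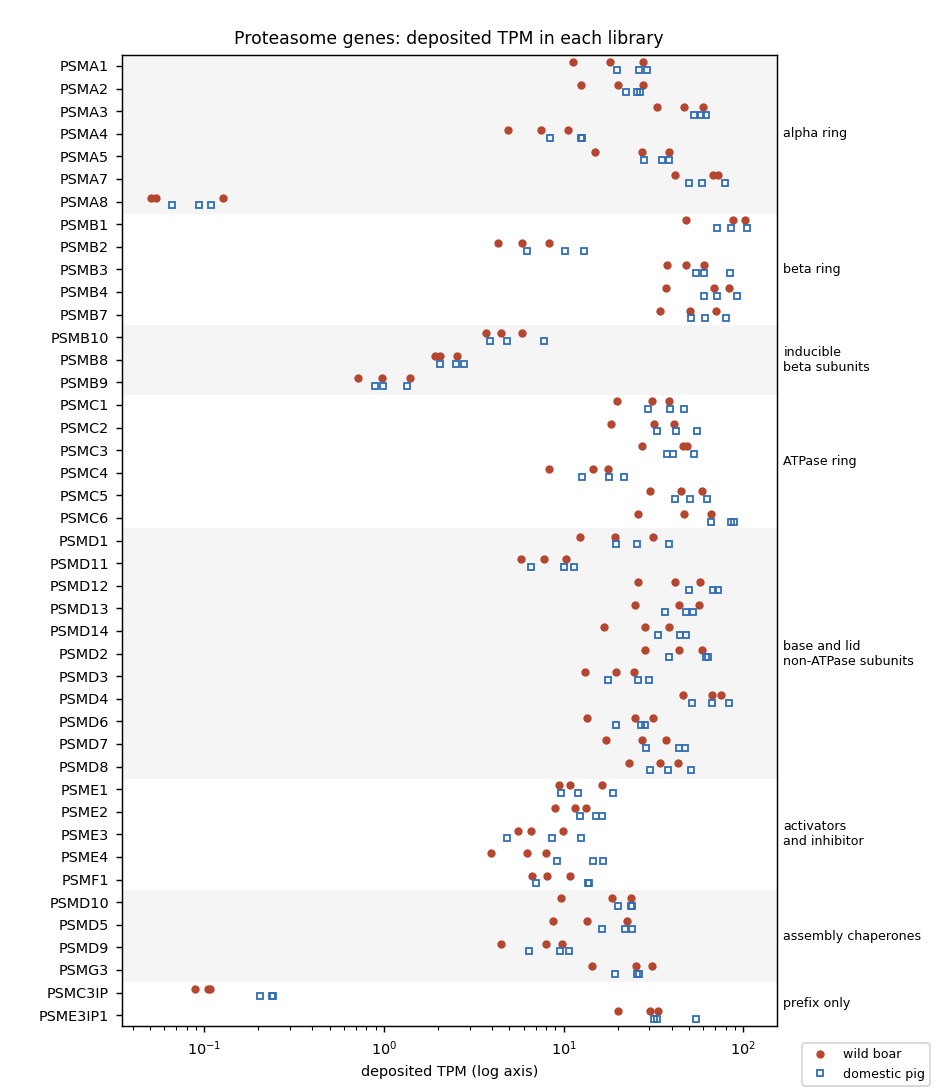
Deposited TPM (log axis) of 43 proteasome genes in each library, grouped by their place in the complex, with wild boar as filled circles and domestic pig as open squares. Levels differ far more between subunits than between breeds: PSMB1 averages 79.2 TPM in wild boar, against 87.5 TPM in domestic pig, against 2.17 and 2.45 TPM for PSMB8; PSMB11, listed at 0 in every library, is left out.

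Compared between wild boar and domestic pig, few proteasome genes passed the threshold. With 3 libraries per breed, not passing does not show that a gene is unchanged. On deposited TPM, 0 of 40 tested members passed a limma adjusted p of 0.05, against 1.60% of all genes tested (0.136% higher in wild boar, 1.46% lower). Without adjustment 2 of the 40 had a limma p under 0.05, against 2091 of all 11752 genes tested. All 40 log2 fold changes were below 0 on deposited TPM, as were 10343 of all 11752 genes. The median of the 40 was -0.35 beside -0.41 for all genes. After rescaling 2 of 40 passed, against 19.5% of all genes tested. PSME4 fell (background for genes lower in wild boar 10.7%) and PSMG3 rose (background for genes higher 8.88%). The rescaled median of the 40 was 0.14 with quartiles of 0.03 and 0.26, beside 0.01 with quartiles of -0.22 and 0.25 for all genes. On that scale 31 members were above 0 and 9 below, against 6053 above and 5699 below of all genes tested. The direction of most members therefore depends on the scaling. The 3 wild boar libraries lay above all 3 domestic pig libraries for 9 members after rescaling (19.6% of all genes) and below them for 2 members, PSME4 and PSMC6 (22.1% of all genes). On deposited TPM only PSME4 of the 40 did not overlap, against 17.5% of all genes.

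On deposited TPM limma pooled the variance wholly over genes of like level, so that most members share a standard error near 0.42, which is no measure of how far the values of any one gene spread. After rescaling a gene's own spread counts, and the median standard error of the members was 0.14.

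**Figure D2:**
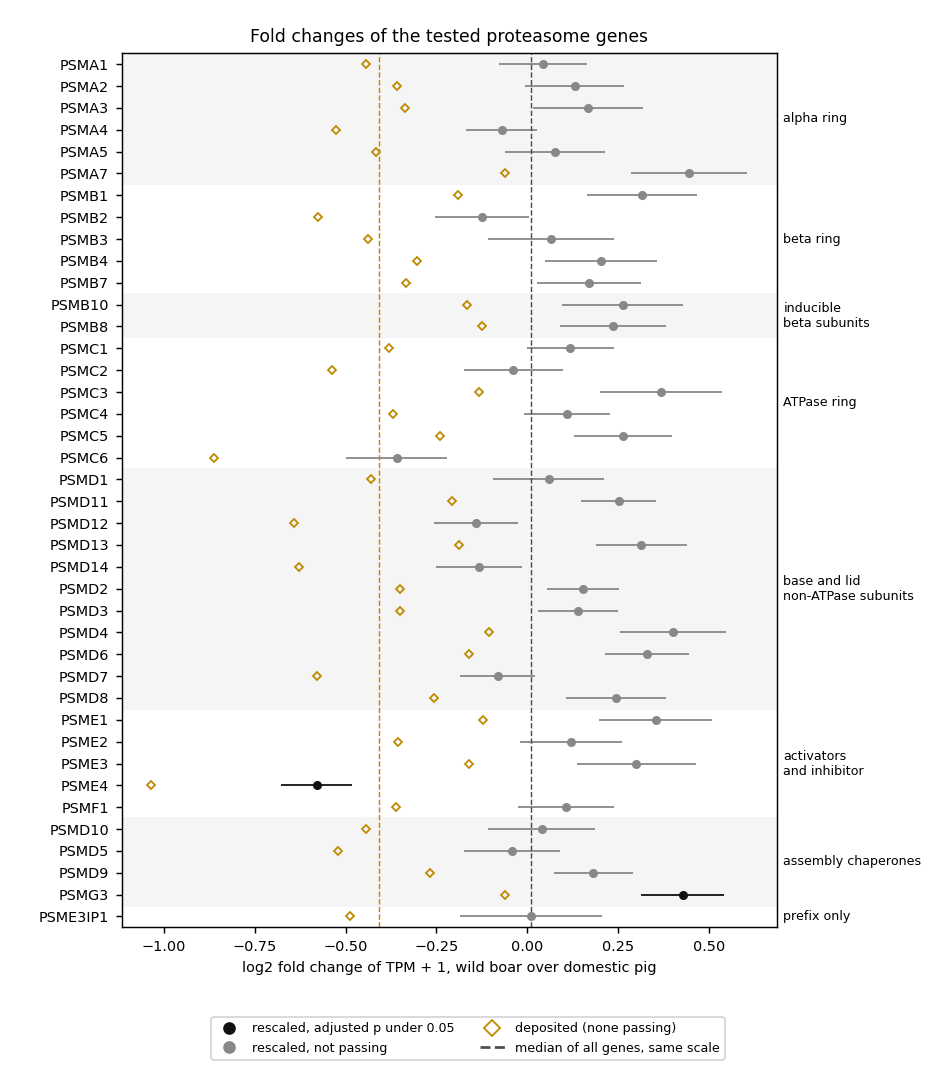
Log2 fold change of TPM + 1, wild boar over domestic pig, for the 40 tested genes: circles with bars are rescaled values with their limma standard error (black where the adjusted p is under 0.05), open diamonds are deposited values, and dashed lines mark the median of all genes on each scale. PSME4 at -0.58 and PSMG3 at 0.43 are the 2 rescaled values that pass. Every deposited value lies below 0, as do those of 10343 of all 11752 genes tested.

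PSME4, a large single-chain activator that caps the core without ubiquitin or ATP, fell in wild boar after rescaling. Deposited TPM was 6.28, 3.93 and 7.98 in wild boar 1 to 3, against 9.17, 16.5 and 14.6 in domestic pig 1 to 3. Every wild boar library lay below every domestic pig library. Rescaled TPM was 6.96 ± 0.169 in wild boar, against 10.9 ± 0.532 in domestic pig (n = 3 each, SD), a log2 fold change of -0.58 (SE 0.10, limma adjusted p = 0.00856). On deposited TPM the change was -1.03 (SE 0.41), which did not pass (limma adjusted p = 0.176). The rescaled call was kept without any single library, with adjusted p between 0.0128 and 0.0356. The same values as shares of the summed proteasome-gene TPM, which no library factor changes, kept that order. PSME4 made 0.537%, 0.534% and 0.537% of the sum in wild boar 1 to 3, against 0.815%, 1.12% and 0.873% in domestic pig 1 to 3. These shares are no separate test. Red blood cell markers separated the breeds in the other direction, at rescaled sums of 450 to 1324 TPM in wild boar, against 86.0 to 228 TPM in domestic pig. In that list 4 of 4 tested genes rose and SLC4A1 was near 0, and its part in the result was not tested.

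The other caps of the core, and its inhibitor, did not pass on either scale. PSME1 and PSME2 form the interferon-inducible cap, and PSME3 forms a related cap found in the nucleus. PSME2, the most abundant of this group, had 11.6, 8.98 and 13.3 TPM in wild boar 1 to 3, against 12.4, 16.4 and 15.2 TPM in domestic pig 1 to 3. These values overlapped, with a rescaled log2 fold change of 0.12 (SE 0.14, limma adjusted p = 0.569). PSME1, PSME3 and the inhibitor PSMF1 were at 0.35, 0.30 and 0.11 on the rescaled and -0.12, -0.16 and -0.36 on the deposited log2 scale. The ratio of PSME1 to PSME2 TPM was 0.940, 1.05 and 1.23 in wild boar 1 to 3, against 0.780, 1.15 and 0.795 in domestic pig 1 to 3. The ranges overlapped (exact two-sided permutation p = 0.3, n = 3 each; 0.5 after Benjamini-Hochberg adjustment over 4 such ratios, with 0.1 the smallest p that 3 against 3 allow).

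Among assembly chaperones, which help build the complex and then leave it, PSMG3 rose after rescaling. PSMG3 acts early, when the alpha ring is put together. Its deposited TPM was 25.2, 14.5 and 31.3 in wild boar 1 to 3, against 19.3, 25.8 and 26.4 in domestic pig 1 to 3, and the groups overlapped. Rescaled TPM was 28.7, 25.2 and 27.0 in wild boar 1 to 3, against 22.1, 18.0 and 19.3 in domestic pig 1 to 3, with no overlap. The rescaled log2 fold change was 0.43 (SE 0.11, limma adjusted p = 0.0358), against -0.06 (SE 0.42, adjusted p = 0.943) on deposited TPM. The call was lost when wild boar 1 was left out (limma adjusted p = 0.110), and likewise for wild boar 2 (0.0669) and 3 (0.0968) and for domestic pig 2 (0.0618) and 3 (0.0822). PSMG3 made 2.15%, 1.96% and 2.10% of the summed proteasome-gene TPM in wild boar 1 to 3, against 1.72%, 1.76% and 1.58% in domestic pig 1 to 3. PSMD5, PSMD9 and PSMD10, chaperones of the regulatory particle base, were at -0.04, 0.18 and 0.04 after rescaling and at -0.52, -0.27 and -0.44 on deposited TPM.

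**Figure D3:**
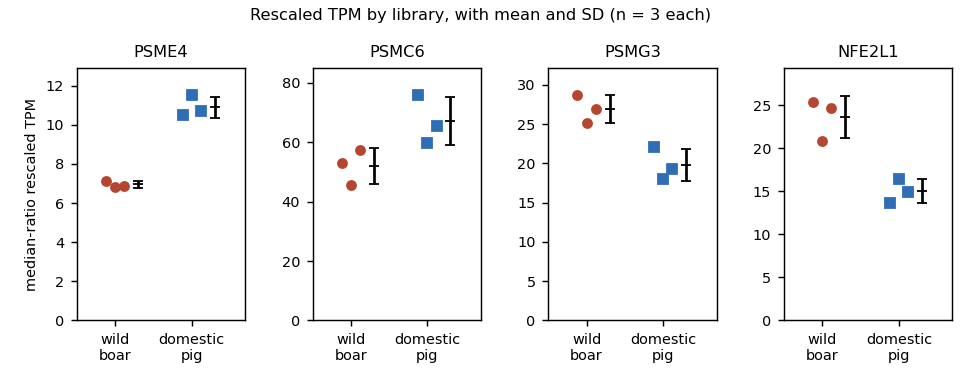
Median-ratio rescaled TPM of PSME4, PSMC6, PSMG3 and NFE2L1 by library, with mean and SD beside the points (n = 3 each). Wild boar libraries lie below all domestic pig libraries for PSME4 and PSMC6 and above them for PSMG3 and NFE2L1; PSMC6 did not pass the test.

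The ATPase ring, which unfolds substrates, had 0 of 6 members passing on either scale. PSMC6, its most abundant member, had 46.7, 26.1 and 66.6 TPM in wild boar 1 to 3, against 66.2, 85.8 and 89.3 TPM in domestic pig 1 to 3. The highest wild boar value was just above the lowest domestic pig value. The rescaled log2 fold change was -0.36 (SE 0.14, limma adjusted p = 0.0974) and the deposited one -0.86 (SE 0.42, adjusted p = 0.265). With quantile scaling, however, PSMC6 passed at -0.45 (limma adjusted p = 0.0366). Within the ring, PSMC6 made 21.6%, 20.1% and 24.5% of the TPM of the 6 ATPase genes in wild boar 1 to 3, against 30.0%, 31.0% and 27.1% in domestic pig 1 to 3. This share was chosen after its values were seen. It did not overlap between breeds (exact two-sided permutation p = 0.1, the smallest possible, n = 3 each; 0.4 adjusted over 4 ratios). PSMC1 to PSMC5 lay between -0.04 (PSMC2) and 0.37 (PSMC3) after rescaling and between -0.54 (PSMC2) and -0.13 (PSMC3) on deposited TPM.

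The alpha ring forms the gated entrance of the core, and 0 of its 6 tested members passed on either scale. PSMA7, the most abundant, had 68.3, 41.7 and 72.9 TPM in wild boar 1 to 3, against 50.0, 59.2 and 79.7 TPM in domestic pig 1 to 3. These overlapped, whereas rescaled TPM did not, at 71.0 ± 7.56 in wild boar, against 52.3 ± 9.52 in domestic pig (n = 3 each, SD; fitted log2 fold change 0.45, SE 0.16, limma adjusted p = 0.0822). PSMA1 to PSMA5 lay between -0.07 (PSMA4) and 0.17 (PSMA3) after rescaling and between -0.53 (PSMA4) and -0.34 (PSMA3) on deposited TPM. Mean levels within the ring ran from 7.65 TPM (PSMA4) to 60.9 TPM (PSMA7) in wild boar and from 11.2 to 63.0 TPM in domestic pig. PSMA8, the paralog of PSMA7 known from testis, was near 0, at 0.0775 ± 0.0435 TPM in wild boar, against 0.0895 ± 0.0213 TPM in domestic pig (n = 3 each, SD).

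The beta ring carries the catalytic sites. Of its 5 analysed members, of which only PSMB7 is catalytic, 0 passed on either scale. PSMB1, the most abundant proteasome gene, had 87.3, 48.3 and 102 TPM in wild boar 1 to 3, against 71.6, 85.5 and 105 TPM in domestic pig 1 to 3. The groups overlapped on deposited TPM and not after rescaling, where the log2 fold change was 0.32 (SE 0.15, limma adjusted p = 0.164). PSMB2, PSMB3, PSMB4 and PSMB7 were at -0.12, 0.07, 0.20 and 0.17 after rescaling and at -0.58, -0.44, -0.30 and -0.33 on deposited TPM. PSMB2 was the low member of this ring, at 6.17 ± 2.01 TPM in wild boar, against 9.80 ± 3.40 TPM in domestic pig (SD, n = 3 each), while the other 4 averaged 48.7 to 79.2 TPM in wild boar, against 64.1 to 87.5 TPM in domestic pig.

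The inducible beta subunits, which replace catalytic ones under interferon, were low in both breeds. PSMB10 takes the place of PSMB7. PSMB10 had 4.48, 3.72 and 5.86 TPM in wild boar 1 to 3, against 3.88, 4.87 and 7.75 TPM in domestic pig 1 to 3. Its share of PSMB7 plus PSMB10 was 8.52% ± 1.12 in wild boar, against 7.75% ± 0.950 in domestic pig, with overlap (SD, n = 3 each; exact two-sided permutation p = 0.5; 0.5 adjusted over 4 ratios). PSMB8 had 2.05, 1.92 and 2.54 TPM in wild boar 1 to 3, against 2.06, 2.53 and 2.78 TPM in domestic pig 1 to 3. PSMB9, whose gene lies beside antigen transporter genes in the major histocompatibility complex, had 1.39, 0.978 and 0.715 TPM in wild boar 1 to 3, against 0.987, 1.34 and 0.896 TPM in domestic pig 1 to 3. All of these overlapped. PSMB8 and PSMB10 were at 0.24 (SE 0.15) and 0.26 (SE 0.17) after rescaling, with limma adjusted p of 0.273 and 0.284, and at -0.13 and -0.17 on deposited TPM. PSMB11, the form of thymic cortex, was listed at 0 in all 6 libraries.

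Of the 11 non-ATPase subunits of the regulatory particle taken by the name rule, which leaves out ADRM1 (given below), 0 passed on either scale. PSMD4, a ubiquitin receptor and the most abundant of them, had 66.7, 46.3 and 75.8 TPM in wild boar 1 to 3, against 52.0, 67.1 and 83.8 TPM in domestic pig 1 to 3. Rescaled values did not overlap, at 74.0 ± 7.87 TPM in wild boar, against 55.9 ± 7.94 TPM in domestic pig (n = 3 each, SD; fitted log2 fold change 0.40, SE 0.15, limma adjusted p = 0.0835). The scaffold subunits PSMD1 and PSMD2 were at 0.06 and 0.15 after rescaling and at -0.43 and -0.35 on deposited TPM. Among lid subunits, PSMD6, PSMD13, PSMD11 and PSMD8 were at 0.33, 0.31, 0.25 and 0.24 after rescaling, whereas PSMD12, PSMD14 and PSMD7 were at -0.14, -0.13 and -0.08. PSMD14 is the deubiquitinase that removes the chain from a substrate, and PSMD7 is its partner. On deposited TPM those 3 were at -0.64, -0.63 and -0.58. PSMD3, also of the lid, was at 0.14 and -0.35.

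Of the 2 genes taken in by prefix alone, PSME3IP1 was at 0.01 after rescaling (SE 0.20, limma adjusted p = 0.975). PSMC3IP, too low to be tested, had 0.0884, 0.104 and 0.107 TPM in wild boar 1 to 3, against 0.239, 0.240 and 0.205 TPM in domestic pig 1 to 3. The groups did not overlap on deposited TPM but did after rescaling.

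The shares of the summed proteasome-gene TPM held by the structural groups overlapped between breeds in 7 of 8 groups. The alpha ring made 16.1% ± 0.0787 in wild boar, against 15.3% ± 0.787 in domestic pig, the beta ring 22.0% ± 0.237 and 21.3% ± 1.39, and the non-ATPase subunits 30.9% ± 0.334 and 30.9% ± 1.47 (SD, n = 3 each). The ATPase ring made 18.4%, 17.7% and 18.3% in wild boar 1 to 3, against 19.6%, 18.9% and 19.7% in domestic pig 1 to 3. Those shares did not overlap, but PSMC6 is one of the genes in the ring and separated by more. PSMC6 alone made 3.99%, 3.55% and 4.48% of the same sum in wild boar 1 to 3, against 5.88%, 5.85% and 5.33% in domestic pig 1 to 3. The difference in the ring's share is therefore not read as a change of the whole ring.

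**Figure D4:**
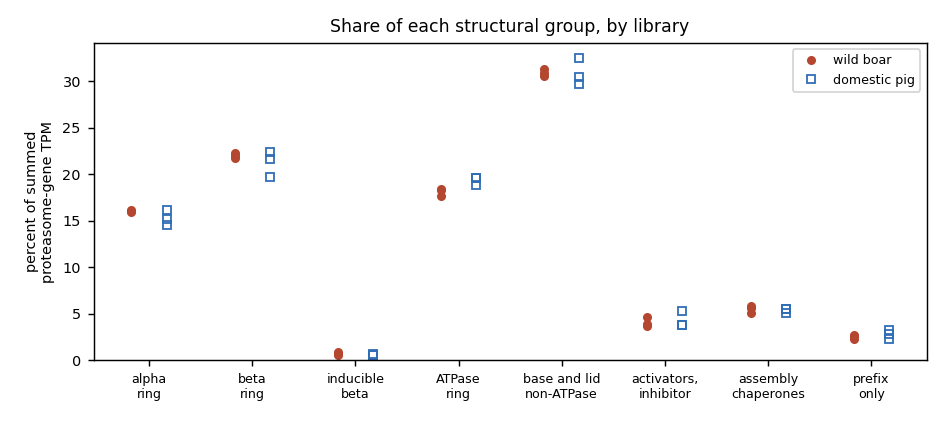
Percent of the summed TPM of all 44 proteasome genes held by each structural group, with 1 point per library, wild boar as filled circles and domestic pig as open squares. The ATPase ring lies at 17.7% to 18.4% in wild boar, against 18.9% to 19.7% in domestic pig, and the other groups overlap. Its member PSMC6 alone makes 3.55% to 4.48% in wild boar, against 5.33% to 5.88% in domestic pig.

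Genes that work with the proteasome were taken as 5 further lists. Of 12 partners of the complex, 0 passed on deposited TPM; after rescaling 2 rose, 1 fell and the median log2 fold change was 0.08. Over all genes tested 19.5% passed after rescaling, 8.88% higher and 10.7% lower in wild boar, and with lists this short none of the counts that follow is read as particular to its list. ADRM1, a ubiquitin receptor of the regulatory particle, rose by 0.41 (SE 0.12, limma adjusted p = 0.0480), and PITHD1, which binds the complex, rose by 0.42 (SE 0.12, adjusted p = 0.0398). UBE3A, a ubiquitin ligase known from Angelman syndrome, fell by 0.45 on the rescaled log2 scale (SE 0.12, adjusted p = 0.0354). On deposited TPM these 3 were at -0.06, -0.09 and -0.94. The assembly factor POMP was at -0.05 after rescaling.

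Of 8 tested genes that control proteasome transcription, 2 rose after rescaling (8.88% of all genes) and 0 passed on deposited TPM, with medians of -0.13 and -0.49. NFE2L1, the factor that raises proteasome genes when the complex is inhibited, had 22.3, 11.96 and 28.6 TPM in wild boar 1 to 3, against 11.9, 23.5 and 20.4 TPM in domestic pig 1 to 3. After rescaling it had 25.3, 20.8 and 24.6 TPM in wild boar, against 13.6, 16.4 and 14.9 TPM in domestic pig, with no overlap (log2 fold change 0.62, SE 0.12, limma adjusted p = 0.0135). On deposited TPM it was at 0.13. MAFG, a small Maf protein that pairs with such factors on DNA, rose by 0.51 after rescaling (SE 0.13, adjusted p = 0.0333) and was at 0.13 on deposited TPM. The related factor NFE2L2 was at -0.38 after rescaling (adjusted p = 0.0600) and -0.87 on deposited TPM.

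Of 11 tested genes of ubiquitin activation and delivery, 1 fell after rescaling, near the 10.7% of all genes, and 0 passed on deposited TPM, with medians of 0.10 and -0.38. The one was UBA6, an alternative ubiquitin-activating enzyme, at -0.49 (SE 0.13, limma adjusted p = 0.0323), against -0.93 on deposited TPM, while the main enzyme UBA1 was at 0.25 (adjusted p = 0.272). The 3 tested ubiquitin genes had 0 passing on either scale, with medians of 0.50 after rescaling and -0.01 on deposited TPM. Their rescaled sums overlapped, at 1236 to 1323 TPM in wild boar, against 651 to 1244 TPM in domestic pig. Of 11 tested genes of antigen presentation and interferon response, 1 rose after rescaling, near the 8.88% of all genes, and 0 passed on deposited TPM, with medians of 0.20 and -0.29. It was TAPBP, which loads peptides onto class I molecules, at 0.36 (SE 0.11, adjusted p = 0.0481), against -0.08 on deposited TPM.

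Most of these partner calls rested on all 6 libraries. ADRM1, PITHD1 and TAPBP missed the threshold whichever library was left out, with limma adjusted p of 0.0653 to 0.135, 0.0621 to 0.121 and 0.0534 to 0.146. MAFG passed only without domestic pig 2 (0.0265), UBA6 only without domestic pig 3 (0.0363) and UBE3A only without wild boar 3 (0.0482). NFE2L1 passed except without wild boar 3 (0.0514).

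Circular RNAs (circRNAs), loops that form when a splice donor joins an upstream acceptor, gave a second readout for the same genes. By position 25 of 11375 deposited circRNAs lay in 7 proteasome genes, and 13 of the 25 lay in PSME4. PSMC6 held 4, PSMD1 held 3, PSMD14 held 2, and PSMA3, PSMB1 and PSMD2 held 1 each. Whole back-splice reads could be recovered behind the circRNA TPM, at 33360 to 58670 per library in wild boar, against 48375 to 72167 in domestic pig, as the smallest whole numbers that fit. A count of 0 allows up to 3 reads, for counting error only. Of the 24 circRNAs above 0 in at least 3 libraries, 0 passed (limma adjusted p from 0.127 to 0.920), against 0.134% of all circRNAs tested. Without adjustment 5 of the 24 had a limma p under 0.05, against 1407 of all 9709 tested. Wild boar lay below domestic pig without overlap for 6 of the 24, against 18.2% of all circRNAs tested. It lay above without overlap for 0 of the 24, against 239 of all 9709. The median log2 fold change of the 24 was -0.76, beside -0.46 for all 9709 tested. The TPM of all deposited circRNAs summed to 1994 to 2121 in wild boar libraries, against 2880 to 3367 in domestic pig libraries. That total did not overlap either, so lower circRNA values in wild boar are not particular to these genes.

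The main circRNA of PSME4 (ssc_circ_7485, chromosome 3, 87299326 to 87301882 as deposited, plus strand) overlapped between breeds. It was read 56, 63 and 61 times in wild boar 1 to 3, against 87, 61 and 57 times in domestic pig 1 to 3, or 4.44, 3.09 and 5.93 TPM against 5.37, 5.62 and 4.28 TPM. Domestic pig 1 had the most reads, and the log2 fold change was -0.22 (SE 0.28, limma adjusted p = 0.732). This circRNA made 69.9% ± 4.48 of all PSME4 circRNA TPM in wild boar, against 67.2% ± 4.71 in domestic pig (SD, n = 3 each). A less abundant one (ssc_circ_7479, chromosome 3, 87251849 to 87262951) was read 2, 3 and 0 times in wild boar 1 to 3, against 14, 6 and 10 times in domestic pig 1 to 3. Its log2 fold change was -2.45 (SE 0.62), which did not pass (limma adjusted p = 0.127).

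The circRNAs of PSME4 were also set against the TPM of the gene. Their summed TPM was 96.5%, 121% and 104% of the PSME4 gene TPM in wild boar 1 to 3, against 84.0%, 48.7% and 47.4% in domestic pig 1 to 3, with no overlap. The summed circRNA TPM itself overlapped, at 4.78 to 8.27 TPM in wild boar, against 6.93 to 8.02 TPM in domestic pig. The divisor is the gene TPM, already lower in every wild boar library, so the ratio is no result separate from it. How the 2 tables were scaled against each other is not given in the sources used here. This ratio was therefore not tested, and its absolute level cannot be read as a share of molecules.

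**Figure D5:**
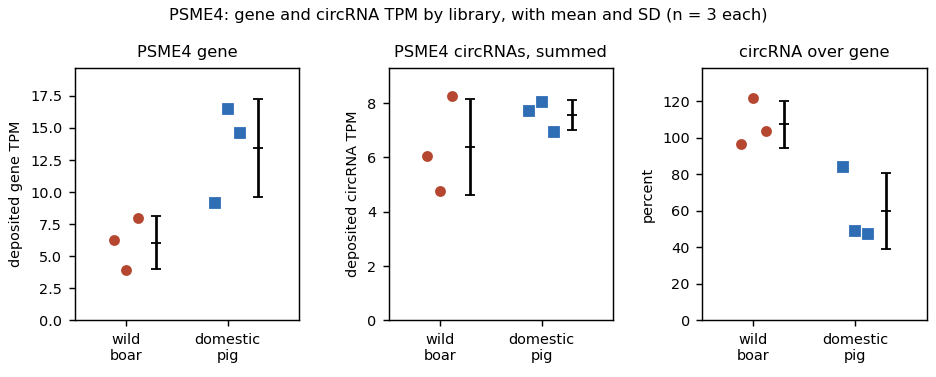
Deposited TPM of the PSME4 gene, summed TPM of its 13 circRNAs, and the second as a percent of the first, by library with mean and SD (n = 3 each). Gene TPM is lower in every wild boar library and circRNA TPM overlaps between breeds. The ratio, whose divisor is that gene TPM, is 96.5% to 121% in wild boar, against 47.4% to 84.0% in domestic pig.

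The 4 circRNAs of PSMC6 did not pass either. Together they were read 6, 16 and 2 times in wild boar 1 to 3, against 22, 26 and 17 times in domestic pig 1 to 3, or 0.428 ± 0.242 TPM in wild boar, against 1.50 ± 0.612 TPM in domestic pig (SD, n = 3 each). The sums did not overlap. Neither did the summed TPM of all circRNAs, at 1994 to 2121 in wild boar, against 2880 to 3367 in domestic pig, a smaller difference in proportion. The part of that total in the PSMC6 sums was not tested. The 4 log2 fold changes lay between -1.88 and -1.53, none passing, with ssc_circ_1515 at the lowest limma adjusted p of 0.139. In percent of gene TPM they made 0.932, 2.55 and 0.274 in wild boar 1 to 3, against 1.78, 2.57 and 1.25 in domestic pig 1 to 3, which overlapped. The circRNA of PSMB1 (ssc_circ_657) was read 7, 9 and 8 times in wild boar 1 to 3, against 11, 4 and 5 times in domestic pig 1 to 3, and overlapped as well.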

How the data were processed

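Per the labels' protocols, total RNA was depleted of ribosomal RNA and made into stranded libraries. The authors deposited TPM in 2 tables (protein-coding genes; circRNAs), with 1 column per library and 0 other columns of per-sample values. STAR 2.6.0c and BWA 0.7.17 are named in the submitters' processing notes without their roles. Genome build, annotation and counting are not given in the sources used here. Symbols matched 14821 of 21280 gene identifiers.

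Genes reaching 1 TPM in 3 or more libraries were tested on log2(TPM + 1) with limma 3.58.1 in R 4.3.3, with a mean-variance trend, two-sided, wild boar against domestic pig. Benjamini-Hochberg adjustment ran over all 11752 genes, with a threshold of 0.05. The fold changes understate changes of low genes. The same fit was run after median-ratio rescaling over the tested genes. CircRNAs above 0 in at least 3 libraries were tested on log2(TPM + 0.043), the median value of 1 read. All 11375 circRNA values came out as whole reads within a relative tolerance of 1e-05. Host genes were assigned by position with RefSeq genes of Sscrofa11.1, in which 99.31% of circRNAs fell, against 47.24% after a shift of 1000000 bases. The deposited build and whether starts count from 0 or 1 are not stated. Reads of near-identical copies could have been split between genes by the counting, which leaves the levels of such members uncertain. Scripts were tested on simulated data.

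Named genes were members passing on either scale, the most abundant member of each structural group, the inducible catalytic pairs, and passing genes of the pathway lists. Members and lists were chosen with earlier results of these data known. Alternatives were another pseudocount, no filter, no trend, a replicate block, quantile scaling and leaving out each library.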

Additional observations from a re-analysis of the deposited data

How the results depend on the processing

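Of the 2 calls after rescaling, PSME4 was kept under every alternative run on that scale and PSMG3 was not. The counts were 1 to 2 without single libraries, 1 with the replicate block (PSME4, PSMG3 missing at limma adjusted p = 0.0525) and 3 with quantile scaling (PSMC6 added), and without domestic pig 2 PSME3 passed in place of PSMG3. Quantile scaling takes the place of either scale, so it was the same fit for both and no separate test of deposited TPM. Set beside the fit on deposited TPM, it gave 3 calls, in place of 0, and a median log2 fold change of 0.12, in place of -0.35. No other alternative on deposited TPM gave a call (range 0 to 0 without single libraries), and that median ran from -0.56 to -0.08 without single libraries. The rescaled median ran from 0.07 to 0.18 without single libraries. The replicate numbers do not pair the samples. Same-numbered deviations over genes correlated at 0.11, -0.07 and -0.16 after rescaling, and not every sample correlated best with its own number. With the replicate block the calls over all genes were 1250, against 2295 without it, and ADRM1, MAFG, PITHD1, TAPBP, UBA6 and UBE3A missed the threshold at adjusted p of 0.0664 to 0.0885. Without the filter on low values ADRM1, MAFG, UBA6 and UBE3A also missed it after rescaling (limma adjusted p = 0.0543, 0.0525, 0.0704 and 0.0720). ADRM1 missed it without the trend (0.0513) and PITHD1 with quantile scaling (0.0599). No circRNA of these genes passed under any alternative run.

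Against the deposited values, that quantile fit turned the sign of PSMG3 (0.43), PSME2 (0.13), PSMA7 (0.36), PSMD4 (0.31), PSMB1 (0.20), PSMB10 (0.26), PSMB7 (0.091) and PSMB8 (0.22). It also turned the sign of ADRM1 (0.42), PITHD1 (0.31) and TAPBP (0.36). Rescaling turned the same signs, but both remove differences of library scale, so neither is separate support for the other. Leaving out 1 library on deposited TPM turned the sign of 10 of the genes named in full, none of them passing on that scale. Over all 40 tested proteasome genes, 11 were above 0 without wild boar 2, 5 without domestic pig 3 and 2 without domestic pig 2, against 0 with all libraries. Their log2 fold changes ran from -0.29 to 0.24 for PSMG3, -0.21 to 0.19 for PSMA7, -0.28 to 0.10 for PSMD4, -0.41 to 0.13 for PSMB1 and -0.35 to 0.071 for PSMB10. For ADRM1 they ran from -0.24 to 0.077, for PITHD1 from -0.35 to 0.22, for TAPBP from -0.27 to 0.094, for MAFG from -0.12 to 0.34 and for NFE2L1 from -0.14 to 0.47. The highest came without wild boar 2, the library with the lowest scale factor (log2 -0.80), except for PSMB10. After rescaling no named gene changed sign. The depth behind gene TPM is unknown, and apart from ssc_circ_7485 no circRNA of these genes had more than 14 reads in a library.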
